A study of Mus musculus with 178 samples.

Results

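The comparison described here is that of blood taken on Day 24 with blood taken on Day 4 in the mice that responded to an antibody against PD-1. Its members were the libraries that the labels give as Responder on these days, 15 on each day, and the ear tag in the library names joined them into 15 pairs, 1 for each mouse. They made up 30 of the 178 bulk RNA-seq libraries of the series. All mice were C57BL/6J, 6 to 8 weeks old, with 4MOSC1 cells, a mouse oral squamous carcinoma line of the tobacco-carcinogen type, injected into the tongue or the buccal mucosa. All libraries carry the treatment label antiPD1, and the antibody, clone RMP1-14, was injected into the peritoneum at intervals of 3 days. Blood was drawn from behind the eye into TRIzol, libraries of its polyadenylated RNA were prepared with the SMARTer mRNA-Seq Library Prep Kit, and response was judged from the tumours by RECIST. Day 4 preceded treatment, and Day 24 was the last bleed. No untreated mice were among the libraries, so treatment, tumour growth, age and repeated bleeding cannot be told apart in any change between the days. The responders are numbered here from 1 to 15 in the order of their tags, of which 11 have 4 digits and 4 have 3 digits.

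PD-1 is an inhibitory receptor of activated T cells, and antibodies against it release T cell receptor signalling from that inhibition. Blood carries the circulating share of the response: T cells that recirculate between lymph nodes and tissue, natural killer (NK) cells and cytotoxic T cells armed with granzymes and perforin, monocytes on their way from bone marrow to tissue, and B cells and plasmablasts, which replace the IgM constant region by IgG or IgA when they switch class. Whole blood without red cell depletion is dominated by haemoglobin RNA of reticulocytes.

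Total counts per library lay between 43819377 and 63000426 on Day 4 and between 52042228 and 63960860 on Day 24. Haemoglobin genes took 83.0% ± 4.12 of them on Day 4 and 81.8% ± 2.85 on Day 24 (SD, n = 15), a mean difference within mice of -1.19 percentage points that did not pass an exact two-sided sign-flip permutation test (p = 0.316, higher on Day 24 in 6 of 15 mice). The counts outside haemoglobin genes lay between 5607782 and 14234324 on Day 4 and between 6587066 and 12947955 on Day 24. The red cell gene Alas2, the T cell gene Cd3e, the B cell gene Ms4a1, the monocyte gene Ly6c2, the neutrophil gene S100a8 and the platelet gene Pf4 were present in every library. The 12 skeletal muscle markers summed to 0.527 to 1.54 CPM (library-scaled counts) on Day 4 and 0.625 to 1.81 on Day 24. Every library held Xist (at least 1022 counts) and none held the Y-linked gene Ddx3y (0 counts in each). The methods of the study state that both sexes were used. CPM is the count of a gene relative to the size of its library, on 1 TMM scaling over all libraries with a group and with haemoglobin in the library size.

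Of 11956 genes tested in the paired fit, 1876 passed an adjusted p of 0.05 (15.7%), of which 871 were higher on Day 24 (7.29%) and 1005 lower (8.41%). A change of at least 1.5-fold as well was found for 280 genes (2.34%), 133 higher and 147 lower, so most changes were small. In bulk blood, fewer cells of a type and less RNA per cell cannot be told apart. The balance of the directions rested on the scaling. Scaled by library totals alone, which are mostly haemoglobin counts, the median of all genes moved from 0.002 to 0.215 on the log2 scale and 104 genes passed, 96 higher and 8 lower. In the deposited TPM values (limma, log2(TPM + 1)) 83 genes passed, 75 higher and 8 lower. Every fall given below is therefore a fall relative to the other genes of the same blood outside the haemoglobins, and Ighg1, Ighg2b, Ighg3 and Jchain were called higher under all 3 of these scalings. The lists whose median was below 0 in the paired fit and above 0 on library totals were the coreceptor and naive T cell, checkpoint, effector T cell, mature B cell, plasma cell, nonclassical monocyte, neutrophil, dendritic cell, both MHC, interferon gamma, proliferation, mitochondrial ribosomal, spliceosome, heat shock, pattern recognition and complement lists, along with progenitor markers.

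Transcripts of class-switched antibodies rose, those of Ighg1, Ighg2b and Ighg2c in 15 of 15 mice. Ighg1, the constant region of IgG1 (chromosome 12, 113325240 to 113330523, minus strand, GRCm38), had a lowest, median and highest level of 0.0661, 0.218 and 0.696 CPM on Day 4 and of 0.518, 1.09 and 4.1 CPM on Day 24. It was higher on Day 24 in 15 of 15 mice, with 14 of the Day 24 libraries above the highest of Day 4. The change was 4.71-fold (log2 fold change 2.24, SE 0.23, edgeR, Benjamini-Hochberg adjusted p = 3.2e-05). Ighg2b went from 0.169, 0.71 and 1.75 CPM to 1.09, 2.07 and 3.24 CPM, a 2.59-fold rise in 15 of 15 mice whose ranges overlapped (log2 fold change 1.37, SE 0.17). Ighg3 rose by 0.97 on the log2 scale (SE 0.13, 14 of 15 mice), Ighg2c by 2.04 (SE 0.35, 15 of 15 mice) and Igha, the constant region of the mucosal isotype IgA, by 1.00 (SE 0.18, 13 of 15 mice). Ighg2c was at 0 in 3 of 15 Day 4 libraries and reached the level of the filter, 0.184 CPM before TMM scaling, in 2 libraries on Day 4 and 13 on Day 24, so it was tested because of Day 24 and its fold depends on the prior count. Reads of the IgG genes can be shared between these near-identical constant regions, so the split among them is uncertain.

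As a share of all heavy chain constant counts within a library, IgG had a lowest, median and highest value of 0.125%, 0.342% and 0.576% on Day 4 and of 0.618%, 1.02% and 1.51% on Day 24, with no overlap and a rise in 15 of 15 mice. The median share stood at 0.894% on Day 9 and 1.02% on Day 17. The IgM share had a median of 69.4% on Day 4 and 64.5% on Day 24 and was higher on Day 24 in 1 of 15 mice. The share of IgD, which naive B cells carry beside IgM without a switch, went from a median of 29% to 32.1% and was higher in 13 of 15 mice, and that of IgA from 1.2% to 2.39% (13 of 15 mice). The median of IgD thus moved by more percentage points than those of IgG and IgA. These shares compare genes within a library and do not use the scaling between libraries. Ighm itself had a log2 fold change of -0.15 (SE 0.09, edgeR, Benjamini-Hochberg adjusted p = 0.253). In the list of 11 immunoglobulin constant genes tested, 5 rose, Ighg2c among them, and 1, the lambda light chain gene Iglc1, fell (log2 fold change -0.25, SE 0.08), where 7.29% of all genes were called higher and 8.41% lower. Iglc1 turned to 0.105 once a trend with transcript length, described below, was removed.

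Jchain, the chain that joins IgA and IgM into polymers and a mark of antibody-secreting cells, had a lowest, median and highest level of 0.536, 1.42 and 3.04 CPM on Day 4 and 1.62, 2.98 and 5.32 CPM on Day 24. It was higher on Day 24 in 15 of 15 mice (log2 fold change 1.13, SE 0.16, edgeR, Benjamini-Hochberg adjusted p = 0.000374), and the ranges overlapped. Of 18 genes of the plasma cell programme tested, Jchain included, 2 rose and 4 fell, with a median log2 fold change of -0.07, beside 7.29% of all genes called higher and 8.41% lower. With the length trend removed 2 rose and 1 fell (median -0.11), beside 3% of all genes higher and 4.35% lower. Xbp1, a transcription factor of secretory cells, was among those lower, by a log2 fold change of -0.21 (SE 0.06) that was near 0 (0.000217) on library totals.

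**Figure D1:**
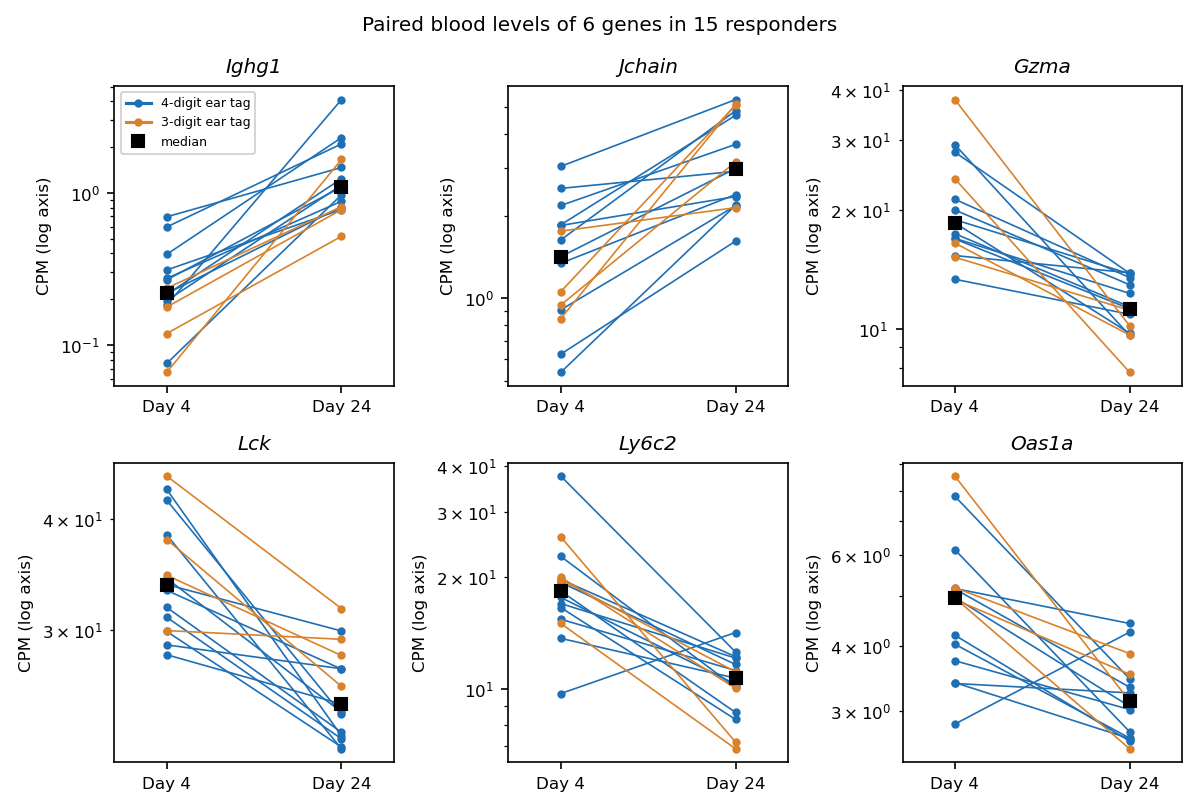
Levels of 6 genes in the 15 responders on Day 4 and Day 24, in CPM on a log axis, with 1 line per mouse coloured by the number of digits of its ear tag and a square at the median of each day. Ighg1 and Jchain rose and Gzma and Lck fell in 15 of 15 mice, while Ly6c2 and Oas1a fell in 14 of 15.

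Of 14 cytotoxic effector genes tested, 11 fell and 1 rose, where 8.41% of all genes were called lower and 7.29% higher. Their median log2 fold change was -0.46 against 0.002 over all genes tested, and on library totals no member passed. Gzma, a granule protease of NK cells and cytotoxic T cells, had a lowest, median and highest level of 13.4, 18.5 and 37.9 CPM on Day 4 and of 7.79, 11.3 and 13.9 CPM on Day 24. It was lower in 15 of 15 mice, and 11 of the Day 24 libraries lay below every Day 4 library (log2 fold change -0.81, SE 0.12, edgeR, Benjamini-Hochberg adjusted p = 0.000834). Prf1, the pore-forming perforin, fell by 0.67 on the log2 scale (SE 0.11) and Nkg7, a protein of the granule membrane, fell by 0.60 (SE 0.08), each in 15 of 15 mice. Ctsw, a protease of cytotoxic cells, and Serpinb9, the inhibitor of granzyme B, had log2 fold changes of -0.41 (SE 0.07) and -0.48 (SE 0.08). The member that rose was Tnf, a cytokine that myeloid cells also make, at a log2 fold change of 1.18 (SE 0.26, 14 of 15 mice).

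Receptors of NK cells moved the same way, with 13 of 20 genes lower, none higher and a median of -0.51, beside 8.41% of all genes lower. Klra8, the activating receptor Ly49H, had a lowest, median and highest level of 1.15, 1.88 and 3.88 CPM on Day 4 and of 0.688, 1.15 and 1.54 CPM on Day 24, and 14 of 15 mice were lower (log2 fold change -0.87, SE 0.12, edgeR, Benjamini-Hochberg adjusted p = 0.0003). Klrb1c, the receptor NK1.1, had a log2 fold change of -0.67 (SE 0.12), and Ncr1, the receptor NKp46 that marks NK cells, one of -0.61 (SE 0.12, from a median of 4.11 to 2.82 CPM). Klra4 and Klri2 had values of -0.75 (SE 0.15) and -0.56 (SE 0.11). Several receptors of the Klra family are near-identical, and reads may be shared among them. The median of the list remained below 0 on library totals (-0.30), where no member passed.

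Of 27 genes tested of the T cell receptor complex and its signalling chain, 17 fell and none rose, with a median of -0.24, where 8.41% of all genes were called lower. Lck, the kinase that starts T cell receptor signalling, had a lowest, median and highest level of 28.1, 33.8 and 44.7 CPM on Day 4 and of 22.1, 24.8 and 31.7 CPM on Day 24. It was lower in 15 of 15 mice, 12 of them below every Day 4 library (log2 fold change -0.43, SE 0.07, edgeR, Benjamini-Hochberg adjusted p = 0.00168). Cd3d, a chain of the receptor complex, had a log2 fold change of -0.45 (SE 0.08), and the adaptor Skap1 one of -0.34 (SE 0.05, 15 of 15 mice). The constant regions Trac and Trbc2 had values of -0.40 and -0.39 (SE 0.07 for each). Cd3e, another chain of the complex, did not pass (log2 fold change -0.14, SE 0.07, edgeR, Benjamini-Hochberg adjusted p = 0.194). The median of the list was -0.02 on library totals, against a median of all genes of 0.215, and no member passed there.

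Among 20 coreceptor and naive T cell genes, 6 fell and none rose, with a median of -0.10, where 8.41% of all genes were called lower. Cd4 had a log2 fold change of -0.40 (SE 0.07, 14 of 15 mice lower) and Cd8b1 one of -0.37 (SE 0.07, 13 of 15), whereas Cd8a did not pass (log2 fold change -0.14, SE 0.06, edgeR, Benjamini-Hochberg adjusted p = 0.101). Igfbp4, a gene of naive CD4 T cells, went from a median of 22.6 to 14.6 CPM and was lower in 15 of 15 mice. Of 20 regulators and homing receptors of effector T cells, 5 fell and none rose beside the same 8.41%, among them Eomes (log2 fold change -0.37, SE 0.09) and Tbx21 (-0.45, SE 0.14), the T-box factors of effector cells, and Il2rb, a chain of the receptors for interleukins 2 and 15 (-0.37, SE 0.07, 15 of 15 mice).

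Of 17 checkpoint genes tested 1 rose and 2 fell, a share near the 15.7% of all genes called. Cd274, which encodes the PD-1 ligand PD-L1, rose from a median of 6.82 to 8.05 CPM (log2 fold change 0.29, SE 0.07, 13 of 15 mice). Cd96, a receptor of T cells and NK cells, and Tox, a transcription factor of exhausted and other T cells, had log2 fold changes of -0.29 (SE 0.08) and -0.24 (SE 0.07). The treatment's target Pdcd1 lay at 0.0661 to 0.298 CPM on Day 4 and 0 to 0.364 CPM on Day 24, too low for the filter of the paired fit. Where the filter asked for only 1 count in 1 library, it had a log2 fold change of 0.14 (SE 0.31, edgeR, Benjamini-Hochberg adjusted p = 0.856), and no change was detectable at this depth.

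Of 28 genes of mature B cells tested, 6 rose and 2 fell, with a median of -0.03, where 7.29% of all genes were called higher and 8.41% lower. The share that fell was thus near that of all genes. Those that rose included the transcription factors Pax5 (log2 fold change 0.35, SE 0.08), Bach2 (0.31, SE 0.07) and Ebf1 (0.21, SE 0.06), the kinase Blk (0.24, SE 0.05) and Ralgps2 (0.42, SE 0.07). Pax5 had a lowest, median and highest level of 47.1, 65.6 and 86.8 CPM on Day 4 and of 70.1, 81.2 and 96.6 CPM on Day 24, higher in 14 of 15 mice with overlapping ranges. The surface marker Ms4a1, which encodes CD20, did not pass (log2 fold change -0.05, SE 0.09). With the length trend removed, Pax5, Bach2 and Ebf1 no longer passed and Blk and Ralgps2 did. In the 12 genes of MHC class II presentation, 3 rose and 1 fell, the latter again a share near that of all genes: Ciita, the transactivator of class II genes, had a log2 fold change of 0.33 (SE 0.06), H2-Ob and H2-DMb1, chains that govern peptide loading, 0.22 (SE 0.06) and 0.16 (SE 0.05), and the protease Ctss -0.29 (SE 0.08).

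Of 20 classical monocyte genes, 11 fell and none rose, with a median of -0.39, where 8.41% of all genes were called lower. In the 11 mice with 4-digit tags 1 was lower, against 3 of 22 neutrophil genes, where 0.695% of all genes were called lower. Ly6c2, the surface antigen that defines these monocytes, had a lowest, median and highest level of 9.7, 18.4 and 37.6 CPM on Day 4 and of 6.88, 10.7 and 14.2 CPM on Day 24. It was lower in 14 of 15 mice (log2 fold change -0.85, SE 0.13, edgeR, Benjamini-Hochberg adjusted p = 0.000921), and the ranges overlapped. Ms4a6c fell by 0.66 on the log2 scale (SE 0.13) and Lyz2, lysozyme of myeloid cells, by 0.56 (SE 0.13). Among 14 nonclassical monocyte genes 4 fell and 1 rose, Ace at a log2 fold change of -0.34 (SE 0.10) and Clec4a1 at -0.41 (SE 0.09) among those lower. The 20 classical monocyte genes kept a median below 0 on library totals (-0.18), with no member past the threshold.

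Of 22 neutrophil genes, 4 fell and 1 rose, with a median of -0.13, where 8.41% of all genes were called lower. The alarmin gene S100a8 did not pass (log2 fold change -0.34, SE 0.14, edgeR, Benjamini-Hochberg adjusted p = 0.092), while Cxcr2, the chemokine receptor of neutrophils, Lcn2, a granule protein, and Hdc, which makes histamine, had log2 fold changes of -0.34 (SE 0.10), -0.54 (SE 0.15) and -0.46 (SE 0.13). The member that rose was Ltf, lactoferrin, which glandular and mucosal epithelia also make, from a median of 0.678 to 3.05 CPM (log2 fold change 2.18, SE 0.39, 13 of 15 mice). Of 22 platelet genes 3 fell, among them Pf4 from a median of 76.9 to 60.2 CPM and from a highest value of 255 to 105 CPM (log2 fold change -0.77, SE 0.17). Of 38 reticulocyte and red cell genes 1 passed in the paired fit, the transferrin receptor Tfrc (log2 fold change 0.49, SE 0.11). On library totals 6 were higher, beside 96 of all 11956 genes, and in log2(TPM + 1) 3 were, beside 75 of all 11925. Alas2, the first enzyme of haem synthesis in red cells, spread from 5570 to 49000 CPM on Day 4 and from 9460 to 37700 CPM on Day 24 and had a log2 fold change of -0.08 (SE 0.33).

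Of 36 genes induced by type I interferon 15 were lower on Day 24, 21 did not pass and none was higher, with a median of -0.27, where 8.41% of all genes were called lower. On library totals no member passed and the median was -0.06, against 0.215 over all genes. In the 11 mice with 4-digit tags 4 were lower (median -0.24), where 0.695% of all genes were called lower. Interferon signals through transcription factors that bind the interferon-stimulated response element (ISRE) of the induced genes. Oas1a, an antiviral oligoadenylate synthetase, had a lowest, median and highest level of 2.83, 4.96 and 8.53 CPM on Day 4 and of 2.54, 3.14 and 4.43 CPM on Day 24, lower in 14 of 15 mice (log2 fold change -0.58, SE 0.12, edgeR, Benjamini-Hochberg adjusted p = 0.00597). Ifit3, an inhibitor of viral replication, went from 3.95, 6.35 and 8.05 CPM to 2.97, 4.29 and 6.33 CPM (log2 fold change -0.43, SE 0.13, 12 of 15 mice lower). Ifi27l2a, an interferon-induced gene, had a log2 fold change of -0.75 (SE 0.10). Isg15, a ubiquitin-like protein often used as a readout of interferon, did not pass (log2 fold change -0.18, SE 0.24, edgeR, Benjamini-Hochberg adjusted p = 0.631), with a range of 33 to 341 CPM on Day 4 and of 57.7 to 174 CPM on Day 24. The ranges of the 2 days overlapped for each of these genes.

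The promoters of Oas1a, Ifit3 and Isg15 are shown because they let the reader see the element in 2 members that fell and 1 that did not pass. Each window runs from 250 bases before the start to 50 bases after it (RefSeq, GRCm38.p6), at chr5:120907476-120907775 on the minus strand for Oas1a, chr19:34583279-34583578 on the plus strand for Ifit3 and chr4:156200769-156201068 on the minus strand for Isg15. Capitals mark every match to the ISRE core GAAANNGAAA or to its reverse complement TTTCNNTTTC, with overlapping matches joined.
Oas1a: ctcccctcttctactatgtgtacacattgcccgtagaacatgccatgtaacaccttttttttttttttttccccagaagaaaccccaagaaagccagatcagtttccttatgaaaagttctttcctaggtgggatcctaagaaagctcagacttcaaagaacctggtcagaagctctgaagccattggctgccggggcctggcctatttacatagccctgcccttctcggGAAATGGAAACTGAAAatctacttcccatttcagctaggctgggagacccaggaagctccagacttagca
Ifit3: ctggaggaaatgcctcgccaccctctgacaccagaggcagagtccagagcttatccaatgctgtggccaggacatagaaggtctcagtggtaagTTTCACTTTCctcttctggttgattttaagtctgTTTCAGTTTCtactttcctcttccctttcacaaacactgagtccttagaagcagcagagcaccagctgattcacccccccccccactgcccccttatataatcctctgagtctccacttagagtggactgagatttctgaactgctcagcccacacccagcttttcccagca
Isg15: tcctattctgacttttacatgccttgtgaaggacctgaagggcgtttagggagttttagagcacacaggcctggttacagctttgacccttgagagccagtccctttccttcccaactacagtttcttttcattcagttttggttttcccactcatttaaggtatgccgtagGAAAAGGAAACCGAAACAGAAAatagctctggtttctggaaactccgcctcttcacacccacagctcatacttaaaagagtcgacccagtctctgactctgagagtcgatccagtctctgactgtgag
The matches begin 20 and 14 bases before the start in Oas1a, 156 and 122 bases before it in Ifit3 and 78, 72 and 66 bases before it in Isg15. A window was found for 9026 of the genes tested, and 4.09% of these windows held the core. It was present in 14 of 26 interferon genes with a window (53.8%), in 6 of the 11 that fell and in 8 of the 15 that did not pass. Over all genes, 8.4% of the windows of genes called lower and 3.6% of those called higher held it. These are matches of letters in a window and not measured binding.

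Of 18 genes that answer mainly to interferon gamma 5 were lower and 1 higher, with a median of -0.01, where 8.41% of all genes were called lower and 7.29% higher. The GTPase Tgtp1 had a log2 fold change of -0.32 (SE 0.06), Gbp2 one of -0.40 (SE 0.11) and Ifi47 one of -0.22 (SE 0.05), and the member that rose was Cd274. Ifi47 was near 0 (0.00209) on library totals. Of 20 genes of MHC class I presentation 9 fell and 1 rose, with a median of -0.17, beside the same shares of all genes. Neither list had a member past the threshold on library totals. The chaperone Calr (log2 fold change -0.40, SE 0.07), the immunoproteasome subunit Psmb10 (-0.32, SE 0.06) and the proteasome activator Psme1 (-0.42, SE 0.09) were among those lower.

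Genes of the cytosolic ribosome and nuclear genes of the respiratory chain were lower more often than the 8.41% of all genes, and none of their members rose. Of 82 cytosolic ribosomal protein genes, 42 fell and none rose, with a median of -0.34 and no member above 0. Rps28, a small subunit protein, had a lowest, median and highest level of 22.5, 34.2 and 66 CPM on Day 4 and of 17.8, 20.4 and 41.4 CPM on Day 24 (log2 fold change -0.75, SE 0.12, 14 of 15 mice lower). Of 86 respiratory chain and ATP synthase genes of the nucleus, 33 fell and none rose (median -0.28), with Cox6b1, a subunit of cytochrome c oxidase, at -0.52 (SE 0.10) and Ndufa9, of complex I, at -0.32 (SE 0.06), both lower in 15 of 15 mice. Of 13 genes encoded in mitochondrial DNA 2 fell, mt-Atp8 (log2 fold change -1.15, SE 0.19) and mt-Nd4l (-0.66, SE 0.17), which are the short subunit genes of that genome. Of 40 spliceosome genes 13 fell and 1 rose, and of 79 mitochondrial ribosomal genes 10 fell and none rose, a share nearer to that of all genes.

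These lists hold short genes, and the change between the days followed transcript length across all genes. In 5 groups of equal size, from the shortest to the longest transcripts, the median log2 fold change was -0.17, -0.04, 0.01, 0.04 and 0.14. In the same order 1.5%, 2.8%, 4.2%, 6.9% and 21.2% of genes were called higher and 20.7%, 10.5%, 5.7%, 4.2% and 1% lower. The median length was 5995 bases for genes called higher, 1896 for genes called lower and 3308 for all genes tested. Spearman's rho between change and length across genes, which are not independent replicates, was 0.432 for the mean change, and over single mice it ran from -0.12 (responder 9) and -0.06 (responder 11) to 0.51, above 0 in 13 of 15. With the trend on length removed within each library, 879 genes passed, 359 higher and 520 lower, and 730 of them were among the 1876. Read quality or RNA integrity of single libraries was not among the files, and the part of RNA quality in the trend was not tested.

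**Figure D2:**
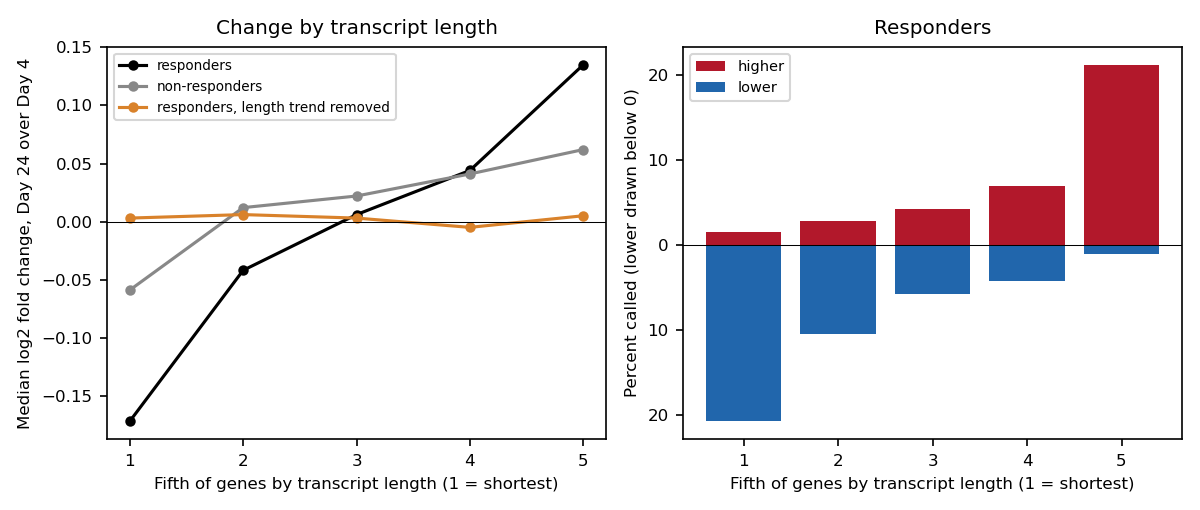
Left, the median log2 fold change of Day 24 over Day 4 in 5 equal groups of genes by length of the longest transcript, for responders, for non-responders and for responders with the length trend removed. Right, the percent of responder genes called higher (up) or lower (drawn down) in each group. The responder line climbs from -0.17 to 0.14, and the corrected line stays near 0 by construction.

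The removal of the trend, after which 4.35% of all genes were called lower and 3% higher, acted unevenly on the lists. Cytosolic ribosomal genes went from 42 to 5 lower, with a median that went from -0.34 to -0.16, and respiratory chain genes from 33 to 10, with medians of -0.28 and -0.10. NK receptors went from 13 to 6 lower (medians -0.51 and -0.38) and cytotoxic effectors from 11 to 5 (-0.46 and -0.32). Type I interferon genes went from 15 to 9 (-0.27 and -0.22) and classical monocyte genes from 11 to 7 (-0.39 and -0.39), so that these lists kept more of their median than of their calls. T cell receptor signalling genes went from 17 to 14 lower, and their median from -0.24 to -0.22. Immunoglobulin constant genes went from 5 to 6 higher, and their median from 0.24 to 0.53. Gzma (log2 fold change -0.60, adjusted p = 0.00381), Ly6c2 (-0.82, 0.00147), Lck (-0.37, 0.00345) and Oas1a (-0.49, 0.013) still passed by edgeR with Benjamini-Hochberg adjustment after it, while Trac (-0.17, from -0.40, adjusted p = 0.131) and Ifit3 (-0.33, from -0.43, adjusted p = 0.0849) did not. Other genes given here as lower on Day 24 lost their call as well, and how much of the fold stayed differed among them. Trbc2 went from -0.39 to -0.11 and mt-Nd4l from -0.66 to -0.22 on the log2 scale. Ctss, Ifi47, Psmb10, Stmn1, Ighv1-7 and Trbv3 had between 43.7% (Ighv1-7) and 59.6% (Stmn1) of their log2 fold change left. Xbp1, Ppbp, Lcn2, Cd96 and Tbx21 had between 68.3% (Xbp1) and 91.5% (Tbx21) of theirs. Of 2 genes taken up below, Ccdc107 went from -0.35 to -0.14 and Tmem106a from -0.46 to -0.41.

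**Figure D3:**
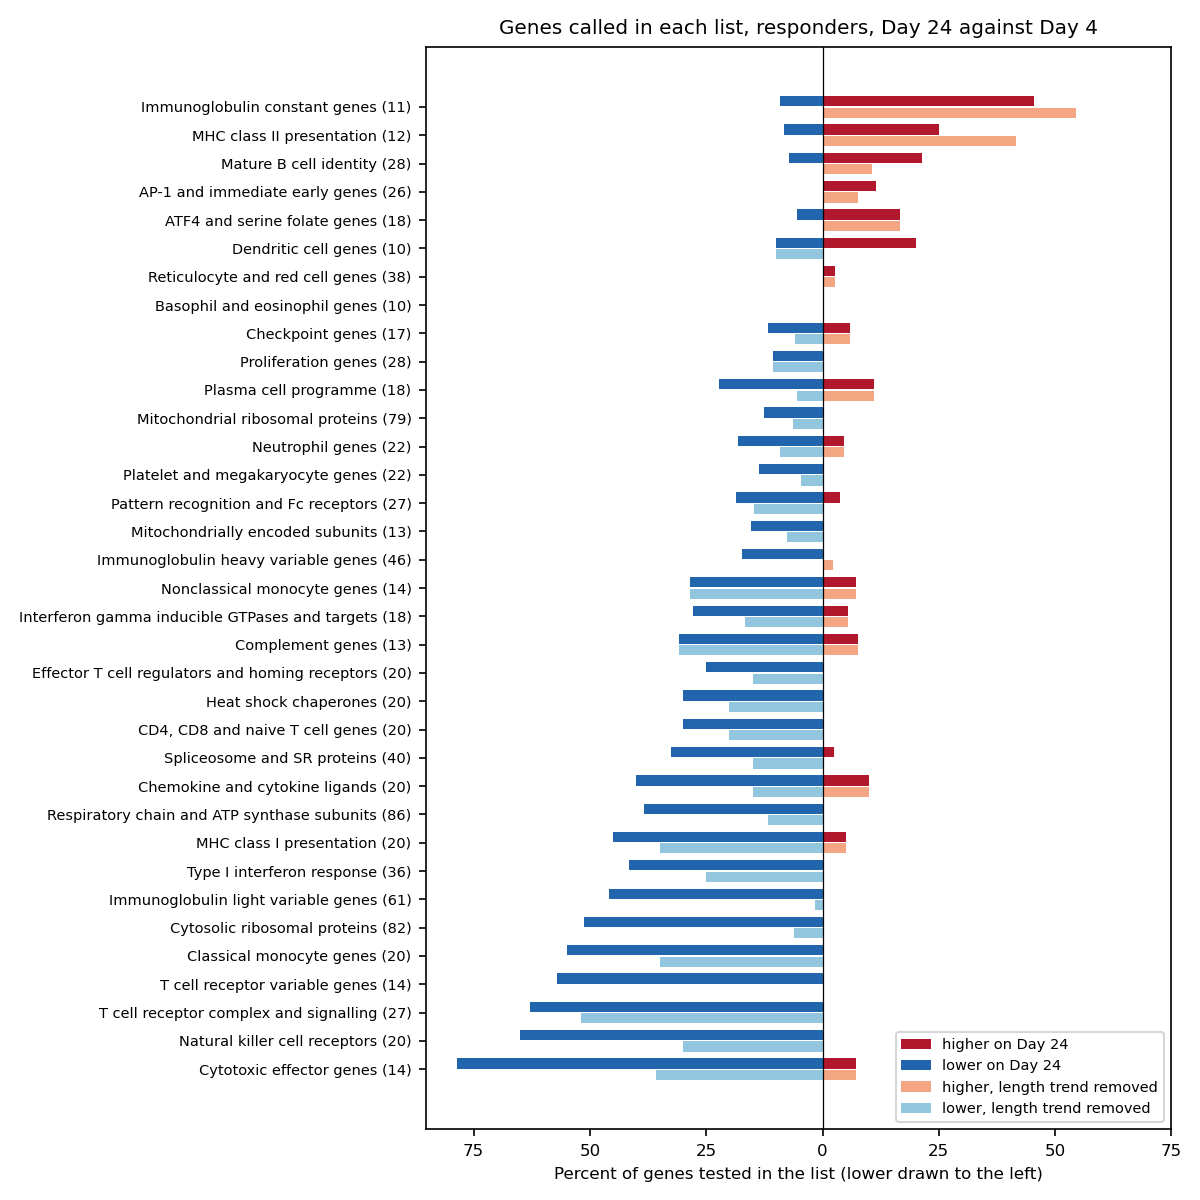
Percent of the genes tested in each list that were called higher (red, to the right) or lower (blue, to the left) on Day 24, with the number of genes tested in brackets. Pale bars give the same after removal of the length trend. The bars to the left are longest for cytotoxic effector genes, NK receptors and T cell receptor signalling, and that of ribosomal proteins is shorter in the pale bar.

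Variable segments of antigen receptors, which are short, had medians below 0. Of 46 heavy chain segments tested 8 fell, of 61 light chain segments 28 and of 14 T cell receptor segments 8, and none rose, with medians of -0.26, -0.40 and -0.60, where 8.41% of all genes were called lower. Igkv14-100 had a log2 fold change of -1.20 (SE 0.20), Ighv1-7 one of -0.67 (SE 0.16) and Trbv3 one of -0.69 (SE 0.13). With the length trend removed 0, 1 and 0 of them were lower and 1 heavy chain segment was higher, beside 4.35% and 3% of all genes, with medians of 0.12, -0.02 and -0.21. The median spread of counts over the segments changed little for light chain and T cell receptor segments. The inverse Simpson index, the number of equally used segments that would give the same spread, had a median of 44.5 on Day 4 and 40.3 on Day 24 for heavy chain segments, higher on Day 24 in 3 of 15 mice. For light chain segments the medians were 32.1 and 31.7, and for T cell receptor segments 31.2 and 30.9. Counts over all T cell receptor segments had a lowest and median total of 192 and 482 on Day 4 and of 154 and 506 on Day 24. The index was not adjusted for such low totals.

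Heat shock chaperones had more members lower than higher, while the like split of cytokine ligands was mostly lost once the length trend was removed. Of 20 heat shock chaperone genes 6 fell, where 8.41% of all genes were called lower. Among them were the co-chaperones Fkbp4 (log2 fold change -0.35, SE 0.06) and Stip1 (-0.44, SE 0.08) and the constitutive chaperone Hspa8 (-0.41, SE 0.09). Of 26 AP-1 and immediate early genes 3 rose, a share near the 7.29% of all genes called higher, among them Ier3 (log2 fold change 0.92, SE 0.26) and Tnfaip3, an inhibitor of NF-kB signalling (0.36, SE 0.09). Of 18 genes of the ATF4 response and serine and folate metabolism 3 rose and 1 fell, beside 7.29% of all genes higher and 8.41% lower. Chac1, a glutathione-degrading target of ATF4, rose from a median of 0.263 to 0.685 CPM (log2 fold change 1.72, SE 0.28, 14 of 15 mice), Asns by 1.11 (SE 0.35) and Atf5 by 0.52 (SE 0.16). Chac1 reached the level of the filter in 8 libraries on Day 4 and 15 on Day 24, so its place in the test leaned on Day 24. Of 20 chemokine and cytokine ligands 8 fell, among them the platelet chemokines Pf4, given above, and Ppbp (log2 fold change -0.63, SE 0.20), and 2 rose, with a median of -0.25, beside 15.7% of all genes called. With the length trend removed, where 4.35% of all genes were called lower and 3% higher, heat shock chaperones had 4 lower (median -0.14, from -0.11). In that setting 3 ligands fell and 2 rose (median -0.11), and Ppbp no longer passed (log2 fold change -0.44, edgeR, Benjamini-Hochberg adjusted p = 0.118). The pair that rose was Il1a, an alarmin cytokine also stored in epithelia, from a median of 0.0356 to 0.393 CPM (log2 fold change 2.97, SE 0.51), and Tnf. Il1a was at 0 in 4 of 15 Day 4 libraries and reached the level of the filter in 1 library on Day 4 and 13 on Day 24, so its fold depends on the prior count and it was tested because of Day 24. Of 13 complement genes 4 fell and 1 rose, beside 8.41% of all genes lower and 7.29% higher. Among those that fell were C3 (log2 fold change -0.63, SE 0.16) and Cfp, properdin (-0.46, SE 0.12), and the complement inhibitor Cd55 rose (0.33, SE 0.08). Of 28 proliferation genes 3 fell, near the 8.41% of all genes called lower, among them Ccnb1 (log2 fold change -0.73, SE 0.19) and Stmn1 (-0.48, SE 0.11), and Mki67 did not pass (0.19, SE 0.20). The eosinophil receptors Siglecf and Ccr3 did not pass in the paired edgeR fit either (log2 fold changes 0.72, SE 0.26, and 0.70, SE 0.29), while DESeq2 called both higher (Benjamini-Hochberg adjusted p = 0.0287 and 0.0403).

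The 10 genes with the smallest p among those at least 1.5-fold higher were Ighg1, Ighg2b, Plk2, Lifr and Epha2 along with Rhpn2, Prss8, AI661453, Plekhs1 and Fam84a. Plk2, a polo-like kinase induced by stress (chromosome 13, 110395046 to 110400844, GRCm38), did not overlap between the days, at 0.202, 0.43 and 0.669 CPM on Day 4 and 0.699, 1.4 and 3.24 CPM on Day 24 (log2 fold change 1.76, SE 0.18, edgeR, Benjamini-Hochberg adjusted p = 3.2e-05). Lifr, the receptor of leukaemia inhibitory factor, rose from a median of 1.32 to 3.31 CPM in 15 of 15 mice (log2 fold change 1.40, SE 0.17). The remaining members Rhpn2, Prss8, AI661453, Plekhs1, Fam84a and Epha2 were at or near 0 in many Day 4 libraries, so that their fitted folds depend on the prior count. Of the 10 with the smallest p among those lower, Scand1, a SCAN domain protein (chromosome 2, 156311847 to 156312704, GRCm38), did not overlap either, at 0.53, 0.755 and 1.42 CPM on Day 4 and 0.028, 0.232 and 0.414 CPM on Day 24 (log2 fold change -1.92, SE 0.21, edgeR, Benjamini-Hochberg adjusted p = 4.55e-05). Its median had been 1.09 CPM on Day 9 and 2.41 CPM on Day 17. Tmsb10, an actin-binding peptide of leukocytes, fell from a median of 128 to 80.3 CPM in 15 of 15 mice. Gm10335 and Gm10095, both processed pseudogenes, Rps27rt, a retrotransposed ribosomal copy, and Gm22133, annotated as a miRNA gene of 109 bases, were also among the 10 (log2 fold changes -1.17, -1.01, -0.82 and -3.13). The values of the pseudogenes and of Rps27rt are uncertain since reads of near-identical genes may be shared with them. That of Gm22133 is uncertain as well, since the transcripts its reads came from were not examined.

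Among the genes that rose were several that blood cells are not known for. Muc4 is a membrane mucin and Krt13 a keratin of the oral mucosa, and Prss8 is the epithelial protease prostasin. Their levels followed the ear tag series as well as the day. Muc4 was at 0 on Day 4 in 10 of the 11 mice with 4-digit tags and had a lowest, median and highest level of 1.51, 8.41 and 25 CPM in them on Day 24. In the 4 mice with 3-digit tags it was at 0.428, 3.5 and 3.83 CPM on Day 4 and 3.05, 4.32 and 20.4 CPM on Day 24. Krt13 and Prss8 were at 0 on Day 4 in 11 of 11 mice with 4-digit tags and in none of those with 3-digit tags. The 7 non-responders with 4-digit tags had 0 counts of Muc4, Krt13 and Prss8 on Day 4 as well.

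Of the 20 epithelial markers only 5 were high enough for the test, and 2 rose, Krt13 (higher in 13 of 15 mice) and Krt6a, a keratin of activated epithelium (14 of 15). Both were at 0 in 11 of 15 Day 4 libraries and in none of Day 24, so they passed the filter on low values through Day 24, and nothing is read from the count. The summed level of the 20 markers was 6.15 to 9.11 CPM on Day 4 and 8.47 to 26.5 CPM on Day 24 in mice with 4-digit tags, and 7.61 to 20.4 and 8.33 to 20 CPM in mice with 3-digit tags. Of the markers, 11 were at 0 in all Day 4 libraries with 4-digit tags and 3 in all their Day 24 libraries. A test of the difference of the change between the tag series called 29 of 12972 genes (0.224%), 28 with a lower signed log2 fold change in mice with 3-digit tags and 1, Gm47015, with a higher one. Plet1, Muc4, Slc6a14, Postn and Plekhs1 had the smallest p. The part of epithelial cells or of handling in the blood draw in these levels was not tested.

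**Figure D4:**
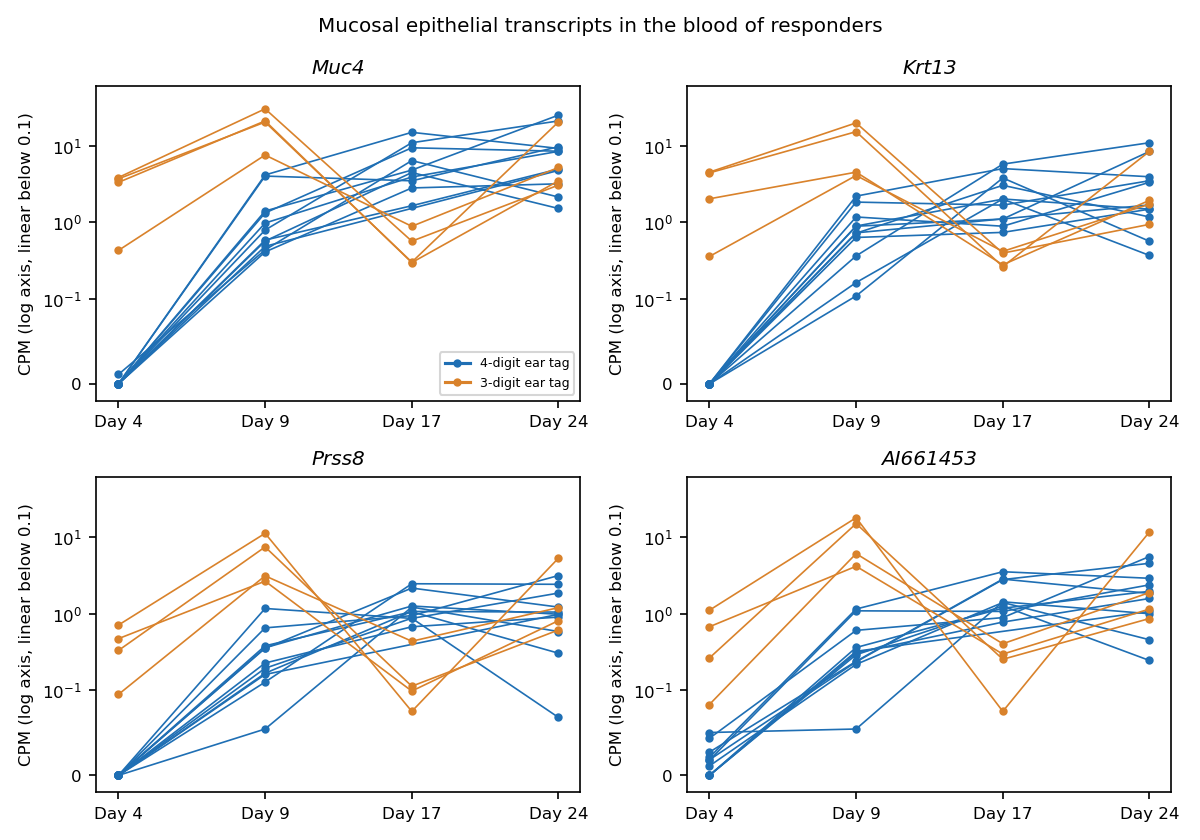
CPM of Muc4, Krt13, Prss8 and AI661453 in each responder on Days 4, 9, 17 and 24, on an axis that is logarithmic above 0.1 and linear below it, with 1 line per mouse coloured by ear tag series (14 of the 15 mice on Day 17). Lines of 4-digit mice start at or near 0, while those of 3-digit mice start above them, peak on Day 9 and drop by Day 17.

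Responders 9, 11 and 12 had the most Muc4 on Day 24, and the fit was repeated without them, an alternative chosen after the data were seen. Responders 9 and 11 are also those whose change did not rise with transcript length, so leaving them out alters both features at once, and their parts cannot be told apart here. The fit called 2758 genes, 431 of them at least 1.5-fold, with 12.5% of all genes lower and 10.5% higher. Cytosolic ribosomal genes then had 78 of 82 members lower and type I interferon genes 21 of 36, while T cell receptor signalling genes had 14 of 27 and immunoglobulin constant genes 5 of 11 higher. Within the 11 mice with 4-digit tags 177 genes passed, with medians of -0.26 for T cell receptor signalling, -0.44 for NK receptors, -0.37 for classical monocyte genes and 0.14 for immunoglobulin constant genes. Fewer members passed in these 11 mice, where 0.695% of all genes were called lower. T cell receptor signalling had 6 of 27 lower, NK receptors 4 of 20, classical monocyte genes 1 of 20 (11 in all 15 mice), cytosolic ribosomal genes 1 of 82 (42), respiratory chain genes 1 of 86 (33) and MHC class I genes 0 of 20 (9), by edgeR, where 2338 of 11945 genes had an unadjusted p under 0.05. Of 10 immunoglobulin constant genes tested, 4 rose, beside 0.787% of all genes. Within the 4 mice with 3-digit tags no gene passed by edgeR, and 2444 of 11784 had an unadjusted p under 0.05.

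The days between place these end points in a course, as differences of mean log2 CPM from the same Day 4 libraries, which Days 9, 17 and 24 share. Classical monocyte genes had list medians of 0.78, 0.13 and -0.38 on Days 9, 17 and 24, and neutrophil genes 0.61, 0.46 and -0.12. Type I interferon genes stood at 0.27, 0.17 and -0.27 and NK receptors at 0.23, 0.04 and -0.48. The medians of these 4 lists were thus above Day 4 on Days 9 and 17 and below it on Day 24, but their members were not all so. On Day 17, 12 of 20 classical monocyte genes, 17 of 22 neutrophil genes, 30 of 36 interferon genes and 11 of 20 NK receptors lay above Day 4. Klrb1c, at medians of 6.02, 5.1, 5.09 and 3.65 CPM on the 4 days, lay below Day 4 on each later day, as did Klra4 and Klri2. T cell receptor signalling genes were at -0.45, -0.15 and -0.24 and cytotoxic effectors at -0.09, -0.19 and -0.45. Immunoglobulin constant genes stood at 0.08, 0.30 and 0.25. Gzma had medians of 18.5, 18.6, 18.3 and 11.3 CPM on the 4 days, and Ighg1 of 0.218, 0.64, 1.1 and 1.09 CPM.

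**Figure D5:**
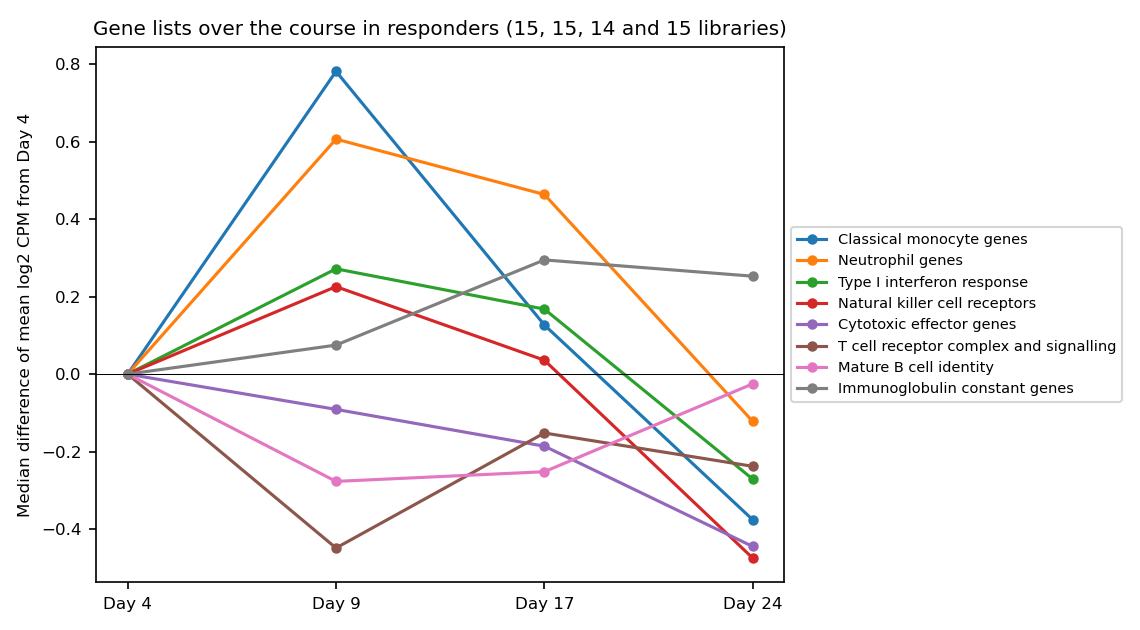
Median over the genes of 8 lists of the difference in mean log2 CPM from Day 4 in responders, with 15, 15, 14 and 15 libraries on Days 4, 9, 17 and 24. Monocyte, neutrophil, interferon and NK lists lie above 0 on Day 9 and below 0 on Day 24, and the immunoglobulin constant list ends at 0.25.

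Non-responders, treated and bled alike, had libraries of 29 mice on both days, and 5552 of 12375 genes passed in them (44.9%). The Day 24 library of non-responder 6 stood apart, with 224000 CPM of the red cell gene Alas2 where the next highest of the 30 had 20000 CPM, and a TMM factor of 0.0877 where the next lowest was 0.689. Without it 6281 of 12397 genes passed. Since they were more numerous, the count is no measure of a larger change. Of 1875 responder calls tested in both groups, 1254 were called in the same direction in non-responders, which is 66.9% of the responder calls and 23% of the 5449 non-responder calls. The signs were the same for 94.7% of the responder calls and for 75.2% of the 11948 genes tested in both. Ighg1 rose by 2.52 on the log2 scale in non-responders (SE 0.17), Jchain by 1.32 (SE 0.12), and Gzma fell by 0.65 (SE 0.09) and Lck by 0.29 (SE 0.05), so each changed in the direction found in responders. The differences between the response groups were -0.27 (SE 0.31), -0.19 (SE 0.22), -0.16 (SE 0.16) and -0.14 (SE 0.08) and did not pass.

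The test of that difference over all genes called 28 of 13075 (0.214%), 21 with a higher signed log2 fold change in responders than in non-responders and 7 with a lower one. Leaving out non-responder 6 on Day 24, an alternative chosen after the data were seen, gave 41 genes with all 28 among them. Leaving out non-responder 29, listed at the outset because earlier work on these data had set it apart, gave 69, and dropping the replicate block gave 77. By its TMM factor of 1.09 on Day 24, non-responder 29 did not stand apart here. Within mice with 4-digit tags and within those with 3-digit tags no gene passed by edgeR, and an unadjusted p under 0.05 was found for 1299 of 12794 and 623 of 13707 genes. Mcemp1, a membrane protein of myeloid cells and mast cells, had a lowest, median and highest level of 2.25, 3.45 and 5.95 CPM on Day 4 and of 1.43, 2.54 and 4.1 CPM on Day 24 in responders, and of 1.59, 2.54 and 4.52 CPM and 2.07, 3 and 6.42 CPM in non-responders. It fell in responders (log2 fold change -0.47, SE 0.10) and rose in non-responders (0.27, SE 0.11), a difference of -0.74 (SE 0.17, edgeR, Benjamini-Hochberg adjusted p = 0.0499). Tmem106a and Ccdc107 were likewise called lower in responders and higher in non-responders, with differences of -0.75 (SE 0.17) and -0.51 (SE 0.11). Ear tag series and response went together, with 4-digit tags in 11 of 15 responders and 7 of 30 non-responders, and once a series term by day was in the fit no gene passed by edgeR, with 2368 of 13075 at an unadjusted p under 0.05. All 28 genes kept their sign in that fit. The differences of Mcemp1 (-0.73, edgeR, Benjamini-Hochberg adjusted p = 0.168), Tmem106a (-0.74, adjusted p = 0.168) and Iqsec1 (0.33, from 0.32 without the term, adjusted p = 0.11) were about as large as before but no longer passed, while Rhpn2 went from 2.79 to 1.52 and AI661453 from 3.72 to 1.94.

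Among the lists with over 10 genes tested, classical monocyte, neutrophil and red cell genes had the medians of the difference farthest from 0 in the fit without a series term. The median difference was -0.43 for classical monocyte genes, -0.53 for neutrophil genes and -0.62 for red cell genes, against -0.001 over all genes. In non-responders, where 23.6% of all genes were called higher and 21.3% lower, 3 of 20 classical monocyte genes rose and 3 fell, 9 of 22 neutrophil genes rose and none fell, and 34 of 38 red cell genes rose and 1 fell. Without non-responder 6 the counts were 3 and 5, 9 and 0, and 34 and 1, the medians of the difference -0.41, -0.49 and -0.52, and 10 of 39 red cell genes differed at an unadjusted p under 0.05. Without non-responder 29 that last count was 16. At an unadjusted p under 0.05 the difference was found for 11 of 20 classical monocyte genes, 16 of 23 neutrophil genes and 12 of 39 red cell genes, beside 1849 of 13075 genes in all. After adjustment it was found for no classical monocyte or red cell gene and for 1 neutrophil gene, the cytokine gene Il1b (-0.86, SE 0.20), which is named after its values were seen. S100a8 had a difference of -0.83 (SE 0.22, edgeR, Benjamini-Hochberg adjusted p = 0.0769). With the series term the medians were -0.51, -0.36 and -0.73, and cytosolic ribosomal genes (-0.44, from -0.16 without the term) and genes of mitochondrial DNA (-0.45, from -0.16) were farther from 0 than neutrophil genes. At an unadjusted p under 0.05 that fit found 15 of 20 classical monocyte, 9 of 23 neutrophil and 10 of 39 red cell genes, beside 2368 of 13075 genes in all. It found 67 of 82 cytosolic ribosomal genes, against 3 without the term, and 42 of 87 respiratory chain genes, against 17. Both lists hold short genes, and the difference between response groups was not tested with the length trend removed.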

How the data were processed

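Bulk RNA-seq of whole blood was compared between Day 24 and Day 4 in 15 responders. The authors deposited a table of estimated counts per gene, which need not be whole and were rounded, and a table of TPM per gene symbol, scaled to 1 sum per library. The submitters' processing notes name STAR and mm10, and the counting tool and annotation are not given in the sources used here. All 55450 gene IDs were found in GENCODE M21 (GRCm38), the source of positions and lengths (the longest transcript of a gene). Columns of per-sample values left unused numbered 0, and 1 Day 17 library whose labels conflict was put in no group.

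Genes passing filterByExpr were tested in edgeR 4.0.16 (R 4.3.3; TMM scaling, glmQLFit and glmQLFTest, Benjamini-Hochberg adjustment over all genes tested) with the mouse as a block, at an adjusted p of 0.05. The ear tag ties the libraries of an animal to each other, which is the pairing. Deviations from the day means correlated by 0.165 on average within a mouse (from -0.256 to 0.533) and by -0.003 between mice. Of 15 mice, 3 correlated best with their own Day 24 library. Differences of change between response groups or tag series were interaction terms with the mouse as a block. No 2 of the 30 libraries were identical (highest correlation 0.9875). The tests were tried on simulated counts with known changes. Levels are CPM, without an interval, and their precision is given by the spread over mice.

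Named were the 10 genes higher and the 10 lower with the smallest p among those at least 1.5-fold changed, up to 5 genes of each list with the smallest p, a set of defining markers (Cd3e, Cd4, Cd8a, Ms4a1, Ncr1, Ly6c2, S100a8, Pf4, Alas2, Pdcd1, Mki67, Isg15, Ighm and Ighg1) and the 5 with the smallest p in each direction in the tests of differences. Not all of them are described, and a few are left out of the text. The members, gene lists and tests were chosen with earlier results of these data known. Alternatives were DESeq2 1.42.0, limma 3.58.1 on log2(TPM + 1) and log2(TPM + 0.1), RLE scaling, library totals, haemoglobin genes removed, count minimums of 1 in any library and of 10 in all libraries, no block, all 4 days in the fit, each tag series alone, each mouse left out, and, added after the data were seen, removal of trends with length (lowess, span 0.3) or with length and GC content, a series term by day, the fit without the 3 mice with most Muc4 and, for non-responders, that without the Day 24 library of non-responder 6. Promoter windows came from RefSeq (GRCm38.p6).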

Additional observations from a re-analysis of the deposited data

Results flagged for a closer look

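The change from Day 4 to Day 24 differed between responders and non-responders for 28 genes by the interaction term. The guanine exchange factor gene Iqsec1 (difference 0.32), the semaphorin gene Sema4b (0.5), Slc28a3 (4.6), Eif4enif1 (0.22) and the nuclear receptor coactivator gene Ncoa3 (0.32) had the smallest p among those whose signed log2 fold change was higher in responders than in non-responders. Among those whose signed value was lower in responders, these were Cyp27a1, a sterol hydroxylase gene of macrophages and liver (-0.61), Atp6v0b, a subunit of the proton pump (-0.34), Ccdc107 (-0.51), Tmem106a (-0.75) and Mcemp1 (-0.74). Iqsec1 and Sema4b had log2 fold changes of 0.16 and 0.23 in responders, which did not pass, and of -0.15 and -0.27 in non-responders, which did. With the length trend removed the responder values were -0.003 for Iqsec1, 0.2 for Sema4b and 0.089 for Ncoa3 (0.24 before). The difference between response groups was not tested with that trend removed. Iqsec1 had medians of 24.1 and 25.7 CPM on Days 4 and 24 in responders and of 25.2 and 22.7 CPM in non-responders. Cyp27a1 had medians of 2.07 and 1.82 CPM in responders and of 1.94 and 2.66 CPM in non-responders. Slc28a3 was at 0 in at least 1 Day 4 library of each response group, so its difference depends on the prior count.

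The change differed between mice with 3-digit and with 4-digit tags for 29 genes among the responders. Gm47015 had the higher signed log2 fold change in mice with 3-digit tags (difference 1.3). Plet1 (-9.78), Muc4 (-9.67), Postn, a matrix protein gene (-5.52), Plekhs1 (-4.79) and Slc6a14, an amino acid transporter gene of epithelia (-6.78), had the lower signed value there. The mice with 4-digit tags were at or near 0 for these on Day 4, and the differences depend on the prior count. The first set was fitted again with a term for tag series, as given with the comparison of response groups. Both sets were also refitted under the settings given in the next section, and the cause of either difference was not tested.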

How the results depend on the processing

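Against 1876 genes (280 at least 1.5-fold) called in the paired fit, library totals alone called 104 (89), limma on log2(TPM + 1) 83 (15) and on log2(TPM + 0.1) 88 (69), with the median of all genes at 0.215, 0.021 and 0.107 on the log2 scale (0.002 in the paired fit). Mice with 4-digit tags alone gave 177 (86), those with 3-digit tags 0 (0, with 2444 at an unadjusted p under 0.05 in edgeR), removal of the length trend 879 (170) and of length and GC trends 879 (164). Without the replicate block 1121 genes passed, 411 higher and 710 lower, 1084 of them among the 1876. At least 1.5-fold were 444 genes with 1 count in any library, 88 with 10 counts in every library and 431 without responders 9, 11 and 12. Leaving out 1 mouse gave 1035 to 2762 genes (200 to 363), with 1222 without responder 4, 1240 without 5, 1035 without 6, 1167 without 12 and 1097 without 13. The count moved by less than 1.5 times with DESeq2 (2500, 334 at least 1.5-fold), RLE scaling, haemoglobin genes removed and all 4 days in the fit. For the difference between response groups, 28 genes became 77 without the block, 69 without the Day 24 library of non-responder 29 and 0 in either tag series alone or with the series term (unadjusted p under 0.05 for 1299 of 12794, 623 of 13707 and 2368 of 13075). For the difference between tag series, 29 became 11 to 44, with 13 without responder 12, 11 without 14 and 44 without 15. Iglc1 turned from -0.25 to 0.028 and 0.035 in TPM (pseudocount 1 and 0.1), 0.105 with the length trend removed and 0.117 with length and GC trends removed. Xbp1 (0.000217) and Ifi47 (0.00209) turned on library totals. The 128 genes followed one by one include some not called in the paired fit, and the counts here are of genes with the same outcome, called or not. These were 128 under RLE scaling and with haemoglobin genes removed, 103 with the length trend removed, 35 on library totals and 34 in log2(TPM + 1). Library totals and the removal of the length trend change values by construction, and the removal also takes out any other change that follows length. The cause of the differences between settings was not tested. Haemoglobin took most of the counts, and genes with few counts, such as Pdcd1, were left out of the paired fit by its filter.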

Other observations

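Where 15.7% of all genes were called, calls between the days were as follows in lists not yet described. Of 27 pattern recognition and Fc receptor genes 5 fell and 1 rose, with a median log2 fold change of -0.15, and Fcer1g, the signalling chain shared by Fc receptors, fell from a median of 20.4 to 15.5 CPM (log2 fold change -0.64, SE 0.13, 13 of 15 mice). Of 10 dendritic cell genes 2 rose and 1 fell, the chemokine receptor gene Ccr9 of plasmacytoid dendritic cells and gut-homing T cells, from a median of 2.54 to 1.93 CPM (log2 fold change -0.43, SE 0.08, 14 of 15 mice). By the paired edgeR fit none of 10 basophil and eosinophil genes and none of 8 progenitor markers passed, where 4017 of 11956 genes had an unadjusted p under 0.05, and DESeq2 called 2 of the former, Siglecf and Ccr3. The 4 adult haemoglobin genes and the 2 skeletal muscle markers tested did not pass in that fit either. On library totals (edgeR) and in log2(TPM + 1) (limma) all 4 haemoglobin genes passed, Hbb-bs and Hbb-bt higher and Hba-a1 and Hba-a2 lower.

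Some small counts above hold genes outside the naming rule, which are named here after their values were seen. These are Fcmr and Vpreb3 (lower) and Siglecg (higher) among mature B cell genes, Irf4 (higher) and Creld2, Sdf2l1 and Manf (lower) in the plasma cell programme, and Stap1 (higher), Spn and Itgax (lower) among nonclassical monocyte genes. They are also H2-Q6 (higher) in MHC class I presentation, Srsf10 (higher) among spliceosome genes, Psat1 (lower) among ATF4 and serine genes, Klf4 (higher) among immediate early genes, Mmp8 (lower) among neutrophil genes, Mcm5 (lower) among proliferation genes, Cfb (lower) among complement genes, Il12rb2 (lower) among effector T cell genes, Tcf4 and Runx2 (higher) among dendritic cell genes and Fcgr2b (higher) among Fc receptors.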
